A study of Homo sapiens with 12 samples.

Results

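The protein kinase C and protein kinase D genes encode the kinases that phorbol esters act on, together with their atypical relatives that phorbol esters do not bind. The 10 genes described here are PRKCA, PRKCB, PRKCD, PRKCE, PRKCH, PRKCQ, PRKCI, PRKCZ, PRKD2 and PRKD3. They were taken as every probe set that the array's annotation pairs with 1 of these symbols alone, which gave 33 of the 54613 probe sets tested and 10 of 19775 genes. Their RNA was measured on 12 HG-U133 Plus 2.0 arrays in U937, a line from a human histiocytic lymphoma whose cells resemble immature monocytes. PMA is a phorbol ester that drives these cells toward a macrophage-like state, and the study sought genes that the zinc finger protein ZXDC1 acts on during that change.

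All 4 groups came from U937 cells stably transduced with the TRIPZ Tet-On cassette, which makes a hairpin RNA against ZXDC1 and ZXDC2 when doxycycline is present, and all were kept under puromycin. The first group received 100 nM PMA and 0.5 µg/mL doxycycline, and the second 100 nM PMA without doxycycline. The third received the vehicle, 0.1% DMSO, with 0.5 µg/mL doxycycline, and the fourth the vehicle alone. Doxycycline was given daily for 4 days, and PMA or DMSO was added after the first 2 days for 3 days, as the labels state the durations. Each group had 3 arrays, which the labels call biological replicates and number 1 to 3. The groups hold no cells with doxycycline and a hairpin of another sequence, so the hairpin and doxycycline itself cannot be told apart. The values are RNA signals of whole cultures, in which fewer cells of a kind and less RNA per cell cannot be told apart, and no protein was measured.

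Protein kinase C enzymes relay signals from the lipid diacylglycerol, which phospholipases release in the membrane when receptors fire. The conventional forms PRKCA and PRKCB need calcium and diacylglycerol, and the calcium-independent forms PRKCD, PRKCE, PRKCH and PRKCQ need diacylglycerol alone. PMA takes the place of diacylglycerol in the C1 domains of both kinds. The atypical forms PRKCI and PRKCZ have a C1 domain that does not bind it and are steered by partner proteins. The protein kinase D enzymes PRKD2 and PRKD3 bind diacylglycerol too and are phosphorylated by the calcium-independent forms. In myeloid cells this family is known for the oxidative burst, adhesion and the turn to a macrophage, and prolonged exposure to phorbol ester is known to make several of the proteins disappear.

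PRKCB and PRKCQ are the 2 genes of the family that PMA moved furthest, in opposite directions, and their promoters are shown for that reason. Each line gives the 250 bases before the start of the gene in RefSeq (GRCh38.p14), 5′ to 3′ on the gene's own strand, with capitals for GGGCGG, the GC box bound by SP1, on either strand. The PRKCB window is chr16:23835733-23835982 on the plus strand, and the PRKCQ window is chr10:6580647-6580896 on the minus strand.
PRKCB: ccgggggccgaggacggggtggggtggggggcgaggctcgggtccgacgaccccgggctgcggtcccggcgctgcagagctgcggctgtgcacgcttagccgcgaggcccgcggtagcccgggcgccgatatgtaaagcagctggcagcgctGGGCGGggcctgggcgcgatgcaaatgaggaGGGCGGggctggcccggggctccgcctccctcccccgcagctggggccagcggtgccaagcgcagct
PRKCQ: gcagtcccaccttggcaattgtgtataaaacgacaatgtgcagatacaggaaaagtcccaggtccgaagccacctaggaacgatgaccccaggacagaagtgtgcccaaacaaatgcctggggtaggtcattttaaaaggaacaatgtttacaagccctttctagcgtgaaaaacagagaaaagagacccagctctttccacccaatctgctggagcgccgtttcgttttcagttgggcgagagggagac

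The PRKCB window was 77.2% GC, held 30 CpG dinucleotides and had a GC box at 98 and another at 67 bases before the start. The PRKCQ window was 49.2% GC, held 8 CpG dinucleotides and had no GC box. Over all 35116 windows of this length in the table the median was 58.0% GC and 11 CpG dinucleotides, and 42.6% of windows held a GC box. All 10 genes had at least 1 window, 16 in all, and 13 of the 16 windows held a GC box. By gene, 9 of the 10 had a GC box in some window, PRKCQ being the exception. In 7 of the 16 windows the GC content was 70% or more. The AP-1 letters TGANTCA, which the factors switched on downstream of protein kinase C recognise, were in 0 of the 16 windows, against 6.57% of all windows. The other letters searched on both strands were the PU.1 core GAGGAA, the EGR site GCGNGGGCG, which can overlap a GC box, and the CRE site TGACGTCA. They were found in 23.6%, 8.41% and 1.65% of all windows. Of the family's 16 windows, 2 held the PU.1 core, 5 the EGR site and 1 the CRE site. Neither printed window held any of these 3. A match or its absence describes these letters in this window and nothing more.

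The median signal lay between 5.16 and 5.22 (log2) on every array, and 5.19, the median over all values, serves below as a limit under which a probe set is called dim. Arrays of the same group correlated at 0.988 to 0.996 over all probe sets, and PMA with vehicle arrays at 0.954 to 0.967. For the ACTB control, the 3′ signal minus the 5′ signal is a measure of RNA integrity. On the 4 arrays with the number 1 it was 1.99 to 2.72 (log2), against 0.71 to 1.64 on the other 8, while the GAPDH control did not set them apart. ZXDC, the gene the hairpin targets, was lower with doxycycline in 6 of 6 pairs of arrays, by 0.50 on the log2 scale on average (exact permutation within agents, two-sided, p = 0.005, the smallest that 400 relabelings allow), which left 70.9% of the signal. The limma test over all probe sets, which serves for the kinases below, did not call this probe set in PMA (unadjusted p = 0.00683, adjusted p = 0.701). Nor did limma call it in vehicle (unadjusted p = 0.00773). All 7 measured monocyte and macrophage markers lay over the dim limit in at least 1 group, and the integrin ITGAM, CSF1R and CD14 were called higher with PMA in both doxycycline states. The other 4, LYZ, PTPRC, CD4 and SPI1, were not called in either state, and the means of the first 3 of them lay lower with PMA, for example LYZ with 12.15 in PMA with doxycycline against 12.48 in vehicle with doxycycline, and 12.05 in PMA against 12.60 in vehicle.

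PMA without doxycycline answers how the family's RNA changes when these cells turn toward a macrophage, with the hairpin off. PRKCB rose and PRKCQ fell, and PRKCE, PRKCZ and PRKD2 fell by less. Of the 33 probe sets 4 rose and 7 fell (limma, Benjamini-Hochberg adjusted over all probe sets, adjusted p under 0.05), which is 33.3%, beside 23.6% of all probe sets. The 4 that rose were all of PRKCB, so the count of risen genes is 1, and those that fell belonged to 4 genes. Rises made up 10.4% of all probe sets and falls 13.2%. By the brightest probe set of each gene, which is the one given first for each gene here, 1 of 10 rose and 4 fell, beside 29.7% of all genes. The median difference over the 33 was 0.02 (log2), as over all probe sets, and the median size of a difference regardless of sign was 0.27 against 0.18 over all probe sets.

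PMA with doxycycline asks the same with the hairpin on. Of the 33 probe sets 4 rose and 4 fell, which is 24.2%, beside 24.5% of all probe sets. Those that rose were 3 of PRKCB and 1 dim probe set of PRKCA, and those that fell were both of PRKCQ, 1 of PRKCE and 1 of PRKD2. By the brightest probe set of each gene 1 of 10 rose and 2 fell, beside 30.8% of all genes. The share called among the 33 therefore lay near that of all probe sets. The 2 PMA comparisons take their means from different arrays, so neither uses the other's controls. They are not independent, because the fit estimates the spread of each probe set from all arrays together. Arrays of the same number with and without doxycycline also deviated together within each agent.

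**Figure D1:**
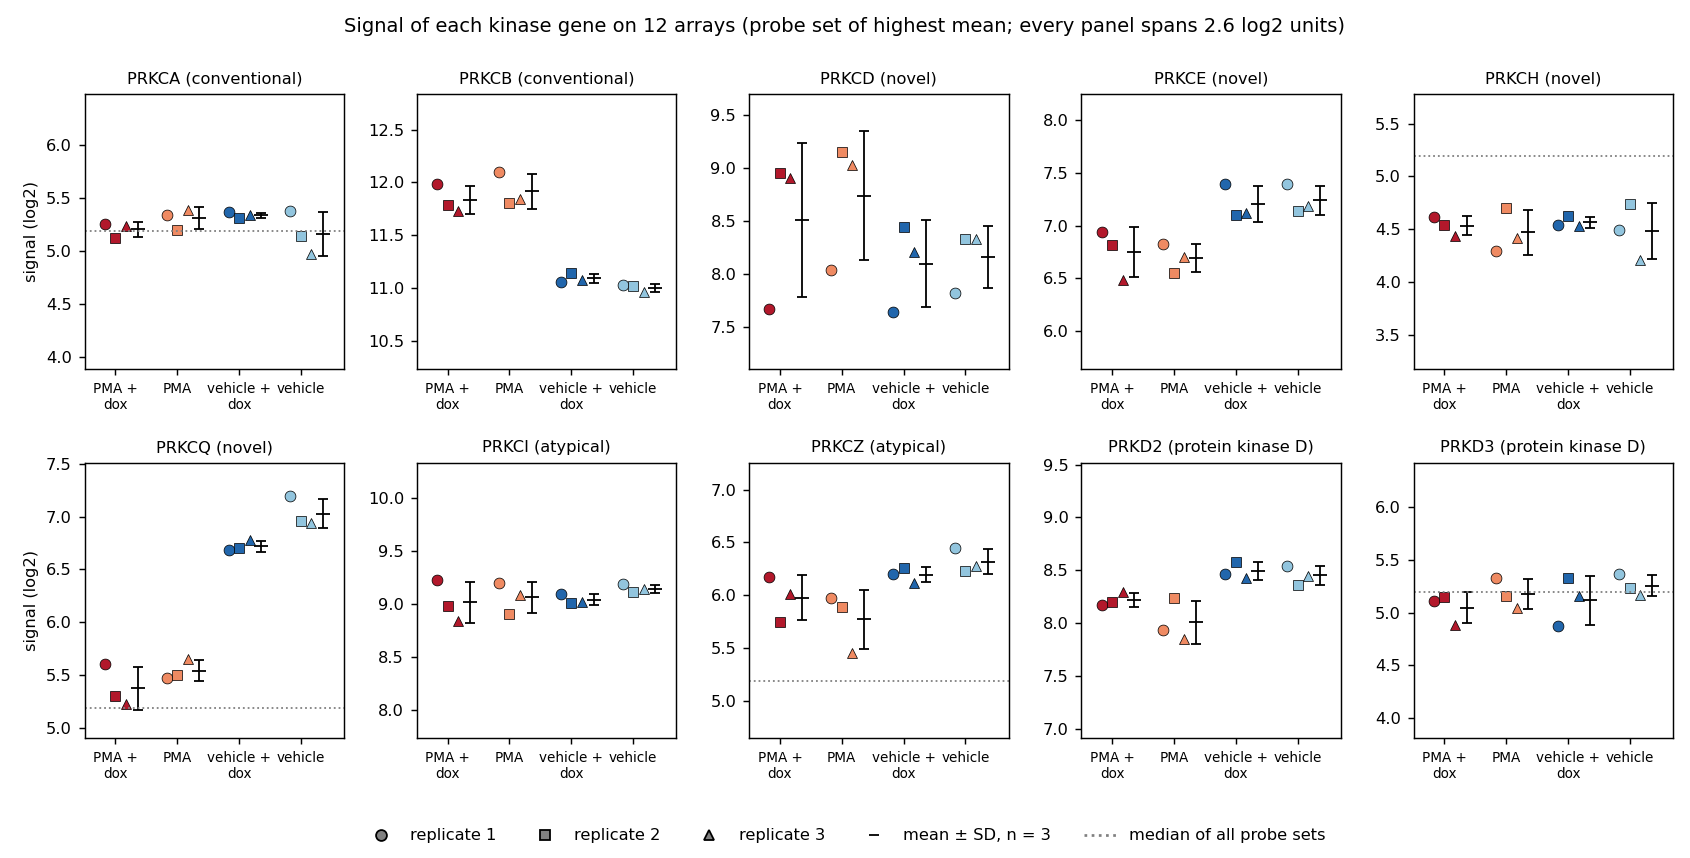
Signal (log2) of the brightest probe set of each of the 10 kinase genes on 12 arrays, by group, with circles, squares and triangles for replicates 1, 2 and 3 and the mean ± SD (n = 3) beside them. Every panel spans the same number of log2 units on its own range, and the dotted line is the median of all values, 5.19. PRKCB lies higher and PRKCQ lower in all 6 PMA arrays than in all 6 vehicle arrays, and the arrays numbered 1 are the lowest of each group for PRKCD.

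Among the conventional kinases, PRKCB was bright in every group, and its signal lay at percentile 97.1 of all probe sets even in vehicle. PRKCB is the conventional form that B cells use below their antigen receptor and that is abundant in monocytes. The probe set 209685_s_at had 11.99, 11.78 and 11.73 (log2) in PMA with doxycycline and 12.10, 11.80 and 11.84 in PMA, against 11.06, 11.14 and 11.07 in vehicle with doxycycline and 11.03, 11.02 and 10.96 in vehicle. The 6 PMA arrays all lay above the 6 vehicle arrays. Without doxycycline the rise was 0.91 (log2, SE 0.11), or 1.88-fold, with an adjusted p of 3.71e-05 from limma. With doxycycline it was 0.74 (SE 0.11), or 1.67-fold, with an adjusted p of 0.000193. In order of level the groups ran PMA, PMA with doxycycline, vehicle with doxycycline and vehicle, and neighbours of the same agent were not told apart by the test. Of 4 B cell markers measured, MS4A1 and CD79B were dim in every group, PAX5 fell in both doxycycline states, and the other 3 were not called. CD79A averaged 6.14 in PMA with doxycycline against 6.01 in vehicle with doxycycline, and 6.15 in PMA against 6.16 in vehicle. The log2 of their summed signal was 7.45 to 7.73 in PMA with doxycycline and 7.32 to 7.62 in PMA, against 7.95 to 8.12 in vehicle with doxycycline and 7.89 to 8.29 in vehicle, and PAX5 is the one marker of the 4 that was called.

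The other PRKCB probe sets pointed the same way. The second, 207957_s_at, had 11.59, 11.54 and 11.37 in PMA with doxycycline and 11.85, 11.44 and 11.38 in PMA, against 10.80, 10.57 and 10.71 in vehicle with doxycycline and 10.78, 10.47 and 10.69 in vehicle. It rose by 0.91 (log2, SE 0.14) without doxycycline and by 0.80 (SE 0.14) with it, and again no PMA array fell among the vehicle arrays. The probe set 228795_at rose by 0.98 (SE 0.17) without doxycycline and by 0.57 (SE 0.17) with it, the second with a limma adjusted p of 0.0273. That second call was lost without any 1 of 3 arrays, namely PMA with doxycycline number 2 (adjusted p = 0.135), PMA with doxycycline number 3 (0.055) and vehicle with doxycycline number 1 (0.124). The same call was lost in a fit of only the groups compared (0.0758) and without all arrays numbered 2 (0.149) or 3 (0.142). For 227824_at the difference was 0.90 (SE 0.20, adjusted p = 0.0044) without doxycycline and 0.45 (SE 0.20, adjusted p = 0.143) with it. The widest spread was in 227817_at, where arrays of a group differed by up to 1.13 (log2), with number 1 the highest of all 4 groups, and its differences of 0.96 and 0.85 did not pass the test. By replicate number they were 1.26, 0.62 and 1.00 without doxycycline and 0.89, 0.98 and 0.68 with it, higher in PMA in 6 of 6. The dim 230437_s_at differed by 0.34 and 0.12 and was not called.

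PRKCA, the conventional form found in most tissues, stood near or under the dim limit. Its brightest probe set, 1560074_at, had 5.26, 5.13 and 5.24 in PMA with doxycycline and 5.34, 5.20 and 5.39 in PMA, against 5.37, 5.32 and 5.34 in vehicle with doxycycline and 5.38, 5.14 and 4.97 in vehicle. The difference was 0.15 (log2, 95% confidence interval -0.11 to 0.40) without doxycycline and -0.13 (-0.39 to 0.12) with it, so a change of more than 0.40 lies outside both intervals. The agents overlapped without doxycycline, and with it all 3 PMA arrays lay just below the 3 vehicle arrays. Its other 4 probe sets were dim in every group. One of them, 213093_at, had 3.34, 3.39 and 3.29 in PMA with doxycycline against 3.07, 3.01 and 2.88 in vehicle with doxycycline, and was called higher by 0.36 (SE 0.12, limma adjusted p = 0.0478). Without doxycycline its difference was 0.29 (adjusted p = 0.116), and the call with doxycycline was lost under 14 of 21 alternatives, among them the omission of any 1 of the 6 arrays compared.

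**Figure D2:**
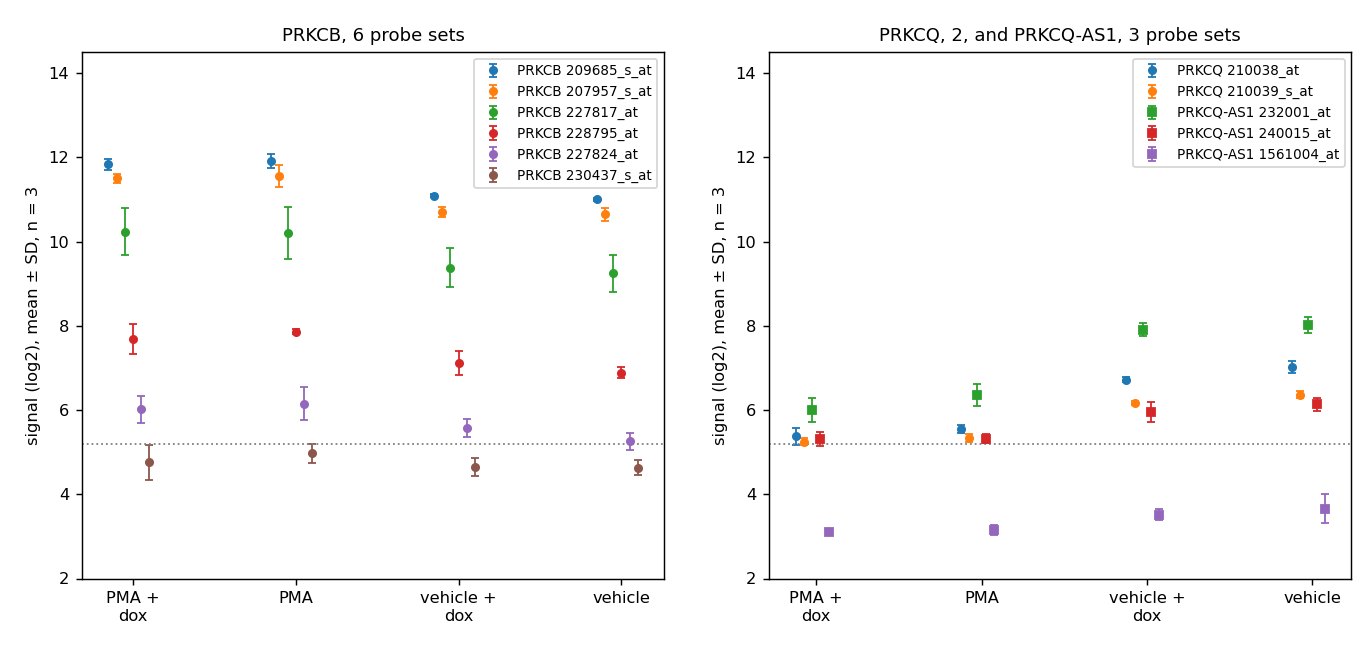
Group mean ± SD (n = 3) of the log2 signal for the 6 PRKCB probe sets (left) and for the 2 PRKCQ probe sets (circles) with the 3 of its antisense neighbour PRKCQ-AS1 (squares, right), in PMA with doxycycline, PMA, vehicle with doxycycline and vehicle. The dotted line is the dim limit of 5.19. Levels of different probe sets cannot be set against each other, but 5 of the 6 PRKCB probe sets lie over the limit in every group, and both PRKCQ probe sets come down to just above it in PMA.

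PRKCQ, the calcium-independent form that T cells use below their antigen receptor, fell furthest of the family. Its probe set 210038_at had 5.61, 5.30 and 5.22 (log2) in PMA with doxycycline and 5.48, 5.50 and 5.66 in PMA, against 6.68, 6.70 and 6.78 in vehicle with doxycycline and 7.19, 6.96 and 6.94 in vehicle. All PMA arrays lay more than 1 log2 unit below all vehicle arrays. The fall was 1.48 (log2, SE 0.12), or 2.80-fold, without doxycycline, with a limma adjusted p of 9.63e-07, and 1.34 (SE 0.12), or 2.54-fold, with it, with an adjusted p of 2.12e-06. Among all probe sets its mean stood at percentile 53.0 in PMA with doxycycline and 55.8 in PMA, against 70.9 in vehicle with doxycycline and 73.5 in vehicle.

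The second PRKCQ probe set, 210039_s_at, had 5.34, 5.23 and 5.17 in PMA with doxycycline and 5.23, 5.33 and 5.42 in PMA, against 6.23, 6.14 and 6.13 in vehicle with doxycycline and 6.27, 6.42 and 6.41 in vehicle. The groups of different agents did not overlap here either. It fell by 1.04 (log2, SE 0.10) without doxycycline and by 0.92 (SE 0.10) with it. Of 5 T cell markers measured, CD3G and CD2 were dim in every group, 0 were called lower, and CD3D was called higher with PMA in doxycycline. CD247 was not called, at 5.16 in PMA with doxycycline against 5.39 in vehicle with doxycycline and 5.22 in PMA against 5.46 in vehicle. The log2 of their summed signal was 7.33 to 7.35 in PMA with doxycycline and 7.25 to 7.37 in PMA, against 7.19 to 7.40 in vehicle with doxycycline and 7.24 to 7.37 in vehicle.

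RefSeq places PRKCQ-AS1, a long noncoding RNA gene, at the start of PRKCQ, which it overlaps. It was looked up after the values of PRKCQ were known. Its probe set 232001_at had 6.31, 5.94 and 5.76 in PMA with doxycycline and 6.61, 6.08 and 6.39 in PMA, against 7.87, 7.77 and 8.08 in vehicle with doxycycline and 7.83, 7.99 and 8.22 in vehicle. These agents did not overlap either, and the fall was 1.65 (log2, SE 0.17) without doxycycline and 1.91 (SE 0.17) with it. A second probe set, 240015_at, fell by 0.81 and 0.64, and the dim 1561004_at differed by -0.50 (limma adjusted p = 0.0285) and -0.40 (adjusted p = 0.076). The probe sets of PRKCA-AS1 and PRKCZ-AS1 were not called in either comparison. Whether the probes of PRKCQ and PRKCQ-AS1 read only their own strand was not tested.

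PRKCE, a calcium-independent kinase known for cell survival and for macrophage responses to bacterial products, fell by less. The probe set 226101_at had 6.94, 6.82 and 6.48 in PMA with doxycycline and 6.83, 6.56 and 6.71 in PMA, against 7.40, 7.10 and 7.12 in vehicle with doxycycline and 7.40, 7.14 and 7.18 in vehicle. No PMA array reached the lowest vehicle array. The fall was 0.54 (log2, SE 0.14, limma adjusted p = 0.0108) without doxycycline, which left 68.6% of the signal, and 0.46 (SE 0.14, adjusted p = 0.0279) with it, which left 72.8%. The first call was lost without PMA number 2 or vehicle number 1 (adjusted p = 0.051 each), and the second without PMA with doxycycline number 3 (0.138) or vehicle with doxycycline number 1 (0.115), after cyclic loess scaling (-0.39, 0.0638) and in a fit of only the groups compared (0.0591). Without all arrays numbered 2 or 3 both PRKCE calls were lost (0.125 and 0.0649 without doxycycline, 0.104 and 0.234 with it). A dim probe set, 236459_at, fell by 0.67 (adjusted p = 0.0082) without doxycycline and differed by -0.11 with it, and its call was lost without the arrays numbered 1 (-0.37, adjusted p = 0.0919). The other 2 probe sets differed by -0.28 and 0.16 without doxycycline and by -0.03 and 0.03 with it, and were not called.

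PRKCD, the calcium-independent kinase best known for the oxidative burst and for cell death, was read by 1 probe set. It had 7.67, 8.95 and 8.90 in PMA with doxycycline and 8.04, 9.16 and 9.03 in PMA, against 7.64, 8.44 and 8.21 in vehicle with doxycycline and 7.83, 8.33 and 8.33 in vehicle. The arrays numbered 1 were the lowest of all 4 groups, and through them the agents overlapped. Over all arrays the difference was 0.58 (log2, SE 0.35, limma adjusted p = 0.291) without doxycycline and 0.41 (SE 0.35, adjusted p = 0.482) with it, which did not pass the test. Without the arrays numbered 1 it was 0.76 (SE 0.13, adjusted p = 0.00079) and 0.60 (SE 0.13, adjusted p = 0.004), and both passed. By replicate number the differences were 0.22, 0.83 and 0.70 without doxycycline and 0.03, 0.51 and 0.69 with it, higher in PMA in 6 of 6. The arrays numbered 1 are those with the highest 3′ minus 5′ ACTB signal, whose part in these values was not tested. Number 1 was the lowest of all 4 groups in 2 of the 33 probe sets (PRKCD and PRKCB 228795_at), beside 6.35% of all probe sets, and the highest in 4, beside 6.28%.

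**Figure D3:**
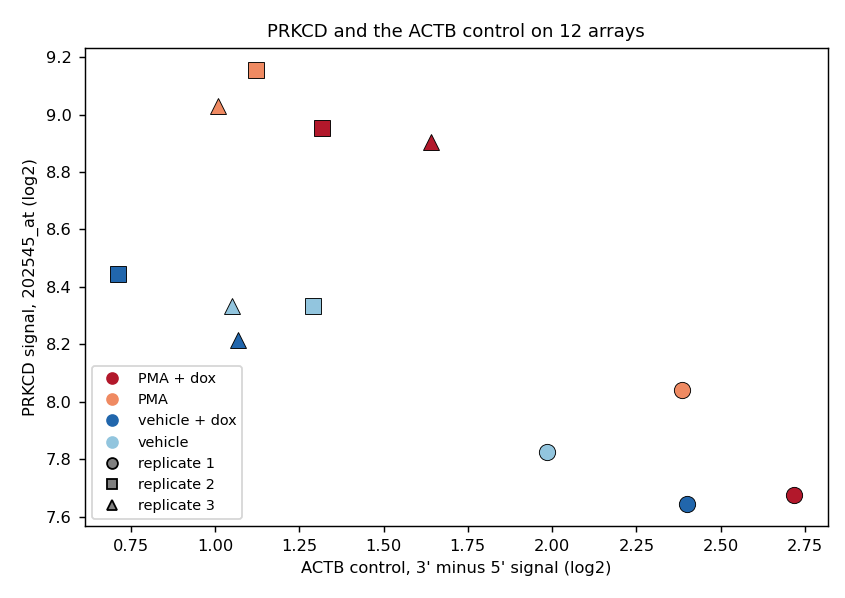
PRKCD signal (log2) against the 3′ minus 5′ difference of ACTB (log2) on the 12 arrays, coloured by group and shaped by replicate number. The 4 arrays numbered 1 lie at the right, at 1.99 to 2.72, and are the lowest of their groups, while among the other 8 arrays all 4 of PMA lie above all 4 of vehicle.

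PRKCH, a calcium-independent kinase of epithelia and lymphocytes, was dim on all its probe sets. Its brightest, 230124_at, had 4.62, 4.54 and 4.44 in PMA with doxycycline and 4.29, 4.70 and 4.42 in PMA, against 4.54, 4.63 and 4.53 in vehicle with doxycycline and 4.50, 4.74 and 4.21 in vehicle. The groups overlapped throughout, with differences of -0.01 (log2, 95% confidence interval -0.32 to 0.29) and -0.03 (-0.34 to 0.28). 

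The atypical kinases, which PMA does not bind, gave a steady signal for PRKCI and a lower one for PRKCZ. PRKCI acts with the PAR polarity complex, and its probe set 213518_at had 9.23, 8.98 and 8.85 in PMA with doxycycline and 9.20, 8.91 and 9.08 in PMA, against 9.10, 9.01 and 9.02 in vehicle with doxycycline and 9.19, 9.11 and 9.14 in vehicle. PMA and vehicle arrays overlapped, and the differences were -0.08 (log2, 95% confidence interval -0.34 to 0.17) without doxycycline and -0.03 (-0.28 to 0.23) with it. Its other 2 probe sets differed by -0.27 to -0.19 and were not called.

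PRKCZ, an atypical kinase known for polarity and for signals to NF-kB, had 6.17, 5.75 and 6.01 in PMA with doxycycline and 5.98, 5.89 and 5.45 in PMA, against 6.20, 6.26 and 6.12 in vehicle with doxycycline and 6.45, 6.23 and 6.28 in vehicle. Without doxycycline the agents did not overlap, and with it PMA number 1 lay among the vehicle arrays. The fall without doxycycline was 0.55 (log2, SE 0.15, limma adjusted p = 0.014), which left 68.4% of the signal, and the difference with doxycycline was -0.22 (SE 0.15, adjusted p = 0.363). The difference between these 2 effects was 0.33 (95% confidence interval -0.12 to 0.78) and did not pass the test. The call was lost without PMA number 3 (-0.39, adjusted p = 0.0692) or vehicle number 1 (-0.48, adjusted p = 0.0584), and without all arrays numbered 2 (0.0596) or 3 (0.187).

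PRKD2 is the main protein kinase D form in blood cells. Its probe set 38269_at had 8.17, 8.20 and 8.30 in PMA with doxycycline and 7.94, 8.24 and 7.85 in PMA, against 8.47, 8.58 and 8.43 in vehicle with doxycycline and 8.54, 8.36 and 8.45 in vehicle. Each PMA array lay below each vehicle array. It fell by 0.44 (log2, SE 0.12, limma adjusted p = 0.0127) without doxycycline and differed by -0.27 (SE 0.12, adjusted p = 0.12) with it. The first call was lost after cyclic loess scaling (adjusted p = 0.0518) and without PMA number 3 (0.0614), vehicle number 1 (0.0527), or all arrays numbered 1 (0.101) or 3 (0.194). The second probe set, 209282_at, fell by 0.57 (SE 0.14, adjusted p = 0.0076) and by 0.49 (SE 0.14, adjusted p = 0.019). The first of these calls was lost without all arrays numbered 3 (-0.39, adjusted p = 0.192). The second was lost without PMA with doxycycline number 3 (0.0624) or vehicle with doxycycline number 2 (0.0905), and without all arrays numbered 2 (0.109) or 3 (0.0789). The last, 241669_x_at, whose name marks probes that may bind other transcripts, differed by 0.24 and 0.05 and was not called.

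PRKD3 stood near the dim limit, and the name of its brightest probe set marks probes that may bind other transcripts. Its brightest probe set, 211084_x_at, had 5.11, 5.15 and 4.88 in PMA with doxycycline and 5.33, 5.16 and 5.04 in PMA, against 4.87, 5.33 and 5.16 in vehicle with doxycycline and 5.36, 5.24 and 5.17 in vehicle. The groups overlapped, and the differences were -0.08 (log2, 95% confidence interval -0.37 to 0.21) and -0.07 (-0.36 to 0.22). The other 4 probe sets were dim in every group and not called. In all, 18 of the 33 probe sets lay over the dim limit in at least 1 group and 15 in none.

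**Figure D4:**
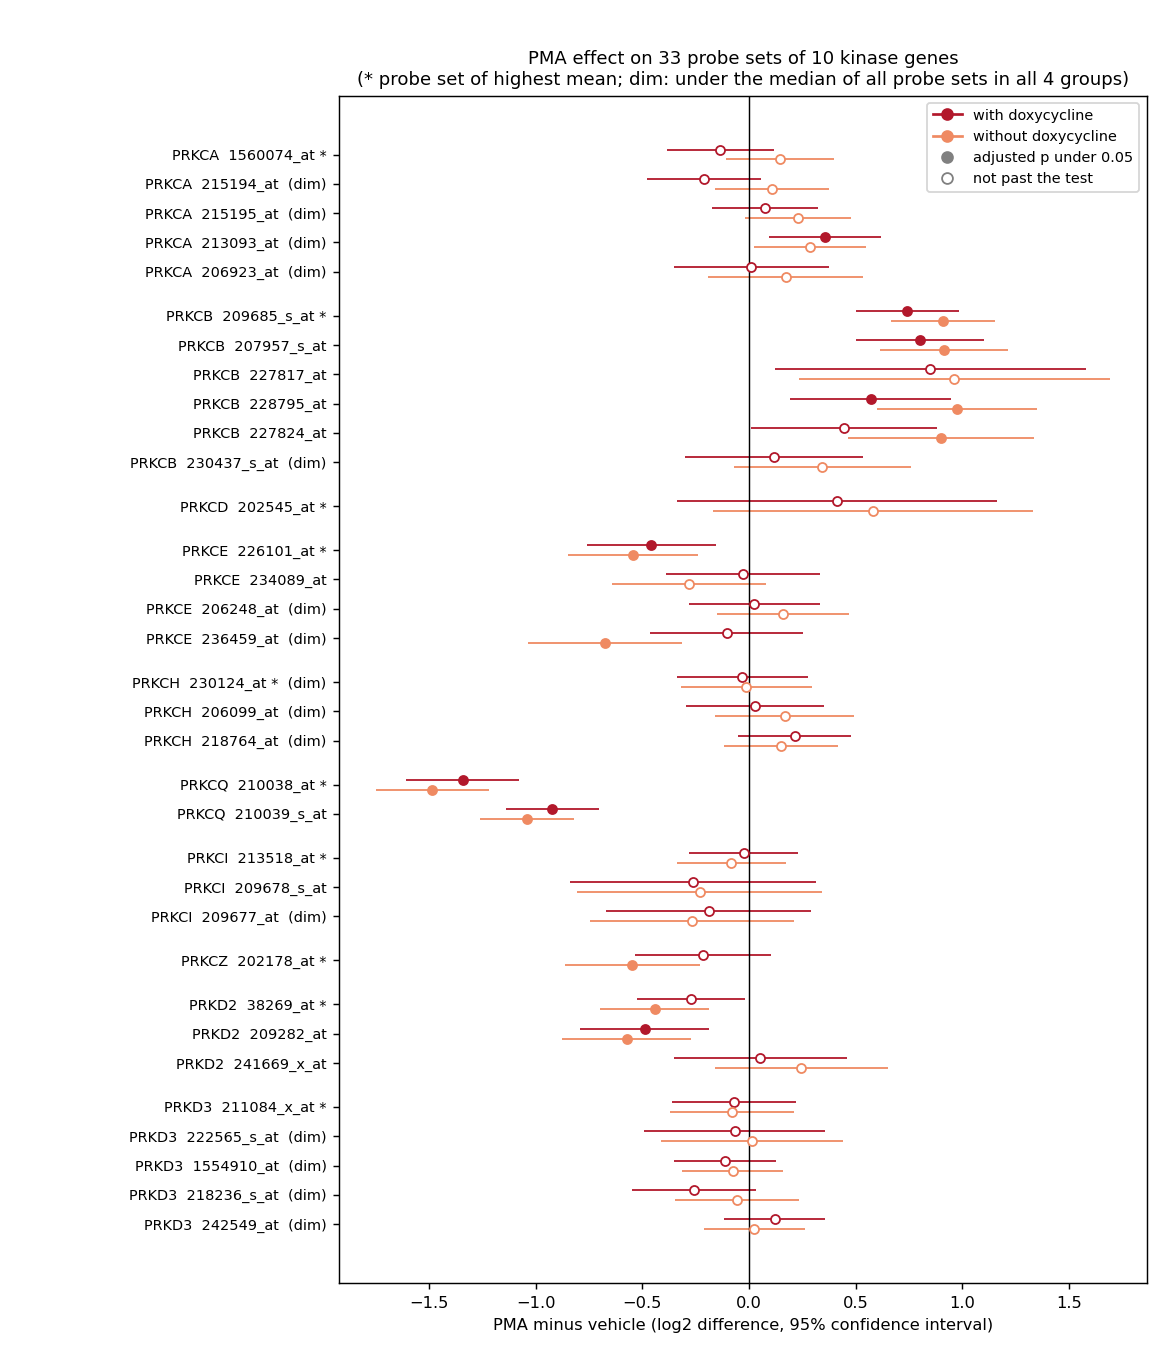
Difference of PMA minus vehicle (log2) with its 95% confidence interval for each of the 33 probe sets, with doxycycline above and without doxycycline below in each row, and filled points for an adjusted p under 0.05. The 4 filled points of PRKCB without doxycycline lie at 0.90 to 0.98 and those of PRKCQ at -1.48 and -1.04, while the intervals of PRKCD reach from -0.17 to 1.33 and from -0.34 to 1.16.

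Doxycycline against none asks what the hairpin did to these kinases, first in PMA. In the fit without pairs no probe set of the 33 was called, as none was among all probe sets (0 of 54613, 0%), ZXDC included. None of the 33 had an unadjusted limma p under 0.05, against 5.93% of all probe sets. With each same-numbered pair as a block, none of the 33 was called either, against 79 of all 54613 probe sets. The intervals given here are those of the fit without pairs. The differences lay between -0.23 and 0.30 (log2). PRKCB 209685_s_at differed by -0.08 (95% confidence interval -0.32 to 0.16), PRKCQ 210038_at by -0.17 (-0.43 to 0.10) and PRKD2 38269_at by 0.21 (-0.04 to 0.47). PRKCD differed by -0.23 (-0.98 to 0.52), an interval that takes in the spread between replicate numbers. Its pairs of the same number differed by -0.37, -0.20 and -0.13, lower with doxycycline in 3 of 3, and with each pair as a block the SE was 0.11 and the limma adjusted p 0.442.

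In vehicle 0 of the 33 probe sets and 0% of all were called by limma, with pairs as a block or without. In the fit without pairs 2 of the 33 had an unadjusted p under 0.05, against 2.84% of all probe sets. These were PRKCQ 210038_at, lower by 0.31 (log2, unadjusted p = 0.0256, adjusted p = 1.00), and the dim PRKCA 215194_at, higher by 0.30 (unadjusted p = 0.0294, adjusted p = 1.00). The 3 vehicle arrays with doxycycline lay below the 3 without for both PRKCQ probe sets, with 6.68 to 6.78 against 6.94 to 7.19 and 6.13 to 6.23 against 6.27 to 6.42. Neither difference passed the test over all probe sets. PRKCB 209685_s_at differed by 0.09 (95% confidence interval -0.16 to 0.33) and PRKCD by -0.06 (-0.81 to 0.69), with pairs at -0.18, 0.11 and -0.12.

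**Figure D5:**
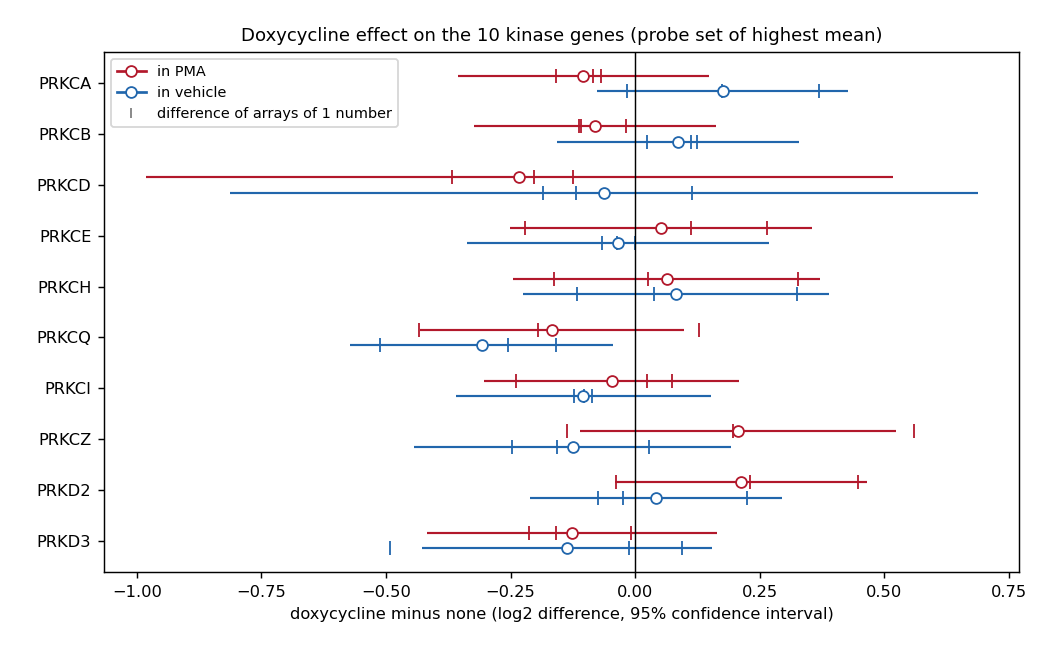
Difference of doxycycline minus none (log2) with its 95% confidence interval for the brightest probe set of each kinase gene, in PMA and in vehicle, with ticks for the differences of arrays of the same replicate number. Of the 20 intervals only that of PRKCQ in vehicle, -0.57 to -0.04, leaves out 0, and no difference passed the test over all probe sets. The intervals come from the fit without pairs.

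The interaction asks whether PMA acted differently with the hairpin on than with it off. It is the PMA effect with doxycycline minus the PMA effect without. In the fit without pairs none of the 33 probe sets was called, as none was among all (0%). Of the 33, 1, the dim PRKCE 236459_at at 0.57 (log2, 95% confidence interval 0.06 to 1.08), had an unadjusted limma p under 0.05 (0.0308), against 2.83% of all probe sets. For the brightest probe set the interaction was -0.17 (-0.51 to 0.18) for PRKCB and 0.14 (-0.23 to 0.52) for PRKCQ. For these 2 probe sets a difference between the PMA effects of up to about 0.5 therefore lies within the intervals. Over all 6 PRKCB probe sets the interaction lay between -0.45 and -0.11, negative in each, and none was called. The bound does not cover the other PRKCB probe sets.

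Genes whose 12 values followed PRKCB and PRKCQ most closely were sought by the root mean square difference over the 12 arrays, each gene centred on its own mean. For PRKCB these were TMEM181 at 0.061 (log2), AGPAT4-IT1 at 0.072 and NFE2L2 at 0.086, the last encoding the transcription factor of the oxidative stress response, against a median of 0.457 over all genes. In PMA without doxycycline these 3 rose by 0.76 to 0.81, which follows from choosing them by likeness on the same 12 arrays. For PRKCQ they were ARHGEF6 at 0.133, an exchange factor for Rac and Cdc42, HAUS1 at 0.14, a subunit of the spindle's augmin complex, and PPP1R3B-DT at 0.146, against a median of 0.746. These fell by 1.44 to 1.45, which follows from the choice in the same way.

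The enzymes and proteins around the kinases were counted in 6 lists of 81 genes, 74 of them measured, by the brightest probe set of each gene. Enzymes that make diacylglycerol came first. Without doxycycline 1 of 11 phospholipase C and D genes rose and 4 fell, and the same counts held with doxycycline, beside 11.9% and 17.8% of all genes rising and falling without doxycycline and 12.3% and 18.6% with it. PLCB1, a phospholipase C below G protein coupled receptors, had a mean of 7.17 (log2) in PMA against 9.66 in vehicle, a fall of 2.49 (SE 0.24), and fell by 2.87 with doxycycline. PLCG1 and PLCG2, the forms below tyrosine kinases, fell by 0.59 and 0.58 and, with doxycycline, by 0.64 and 0.79. PLCB2, a form of blood cells, rose by 0.68 and by 0.60. The median difference of the list was -0.01 and -0.06, against 0.01 and -0.01 over all genes.

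The list of priming and turnover holds the kinases, chaperones and phosphatases that make protein kinase C competent or shut it off. Without doxycycline 5 of 14 rose and 5 fell, beside 11.9% and 17.8% of all genes. With it 3 rose and 4 fell, beside 12.3% and 18.6%. CDC37, a partner of the chaperone HSP90, rose by 0.86 (SE 0.29, limma adjusted p = 0.0497), and with doxycycline its difference was 0.63 (adjusted p = 0.154). PPP2R5A, a regulatory subunit of the phosphatase PP2A, rose by 0.60 and 0.57, and RICTOR, a subunit of the TORC2 complex that phosphorylates the kinases' tails, by 0.54 and 0.61. PHLPP1, the phosphatase that removes that phosphate, fell by 1.02 (SE 0.20) and 0.90. MLST8, shared by both TOR complexes, fell by 0.80 and 0.87, and the chaperone HSP90AB1 by 0.38 and 0.50. The median difference was -0.09 without doxycycline and 0.00 with it.

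Of 18 measured anchors and partners 4 rose and 3 fell in both doxycycline states. Among all genes 11.9% rose and 17.8% fell without doxycycline, and 12.3% and 18.6% with it. SQSTM1, the scaffold also called p62 that binds atypical kinases, had a mean of 10.38 in PMA against 8.32 in vehicle, a rise of 2.06 (log2, SE 0.12), and rose by 1.92 with doxycycline. AKAP13, an anchor that holds protein kinases A and C and PKD, rose by 0.95 and 0.77, and the 14-3-3 protein YWHAZ by 0.57 and 0.62. PARD6G, a PAR6 form that binds atypical kinases, fell by 1.59 (SE 0.12) and 1.71, PKP4, a plakophilin-related protein of cell junctions, by 1.55 and 1.46, and LLGL1, a polarity protein and substrate of atypical kinases, by 0.78 and 0.71. The median difference was 0.16 in both states.

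Among 20 substrates 3 rose and 5 fell in both doxycycline states, at a median difference of -0.10 without doxycycline and -0.19 with it. The shares of all genes that rose and fell were 11.9% and 17.8% without doxycycline, and 12.3% and 18.6% with it. NCF1, the subunit of the NADPH oxidase that protein kinase C phosphorylates in the oxidative burst, had a mean of 9.97 in PMA against 5.61 in vehicle, a rise of 4.36 (log2, SE 0.32), and with doxycycline 9.81 in PMA against 5.81 in vehicle. Its near-identical pseudogenes may share this signal. SSH1, a cofilin phosphatase and substrate of PKD, rose by 1.47 and 1.31, and the ceramide carrier CERT1 by 0.32 and 0.38. MARCKS, the actin-binding substrate that leaves the membrane when phosphorylated, had a mean of 8.79 in PMA against 11.55 in vehicle, a fall of 2.76 (SE 0.35), and fell by 2.33 with doxycycline. PLEK, or pleckstrin, fell by 0.91 and 1.40, and the nuclear lamin LMNB1 by 1.03 and 0.99.

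Of 8 measured adaptors between protein kinase C and NF-kB 2 rose without doxycycline and 3 with it, and 0 fell, with a median difference of 0.23 and 0.19. Rises made up 11.9% of all genes without doxycycline and 12.3% with it, and falls 17.8% and 18.6%. MALT1, the protease of the CARD-BCL10-MALT1 complex that protein kinase C sets off, rose by 1.05 (log2, SE 0.11) and 1.10, and the ubiquitin ligase TRAF6 by 0.75 and 0.66. CHUK, a catalytic subunit of the IkB kinase, was called with doxycycline, at 0.75 (limma adjusted p = 0.00745), and without it had a difference of 0.53 (adjusted p = 0.053). In both doxycycline comparisons and in the interaction 0 genes of these 6 lists were called in the fit without pairs.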

How the data were processed

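The authors deposited log2 signals of 54675 probe sets on 12 arrays, which per the submitters' processing notes come from RMA, a background correction, quantile scaling and probe set summary. Its version is not given in the sources used here. Per the labels, 100 ng of RNA went into a 3′ labelling kit. The values were used without further scaling; 62 controls were left out.

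Group means over all 12 arrays were fitted in R 4.3.3 by limma 3.58.1, using lmFit and eBayes (8 residual and 5.56 prior degrees of freedom, two-sided). Benjamini-Hochberg adjustment ran over 54613 probe sets, and calls were made at 0.05. Counts by the brightest probe set of each gene used these same adjusted p-values, without a further adjustment over genes. The procedure was tested on simulated data. No filter on dim probe sets was used. ZXDC was tested by exact permutation within agents. Arrays carry no counts, so their number, 3 per group, limits the precision.

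Every member is named; each list names up to 3 called genes in each direction with the largest change, except that the result of 1 list is not reported here. CHUK, LYZ, PTPRC, CD4, SPI1, CD79A, CD247, ITGAM, CSF1R, CD14, CD3D, CD3G, CD2, MS4A1, CD79B, PAX5 and the antisense genes were named after their values were seen. Markers were counted in 6 lists: monocytes, T cells, B cells, epithelium, fibroblasts and erythroid cells. Of the lists outside monocytes, CD3D was higher in PMA with doxycycline than in vehicle with doxycycline. PAX5 fell to 5.90 in PMA, against 7.27 in vehicle, and to 6.05 in PMA with doxycycline, against 7.21 in vehicle with doxycycline. No other gene of these lists was called. The members, lists and tests were chosen with earlier results of these data known. Promoter sequences are RefSeq's, GRCh38.p14.

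Same-numbered arrays with and without doxycycline deviated together (correlations 0.56, 0.22 and 0.31 in PMA, 0.53, 0.22 and 0.31 in vehicle, all over the limit of 0.1), and were taken as paired within agents from the data. Across agents 10 of 12 correlations were over it, but not all in either PMA comparison made, so no pairing was taken there. The main fit used no pairs even within agents, and the doxycycline values given come from it unless a block is named.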

Additional observations from a re-analysis of the deposited data

Results flagged for a closer look

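For PRKCB 209685_s_at the differences of doxycycline minus none went opposite ways in the 2 agents. In the pairs of PMA arrays they were -0.11, -0.02 and -0.11 (log2), and in those of vehicle arrays 0.02, 0.12 and 0.11. The interaction was -0.17 (SE 0.16), with an adjusted p of 1.00 by limma over all probe sets, and did not pass the test. The same pattern of opposite signs was in 1 of the 33 kinase probe sets and in 3.13% of all probe sets. Groups of 3 arrays were not searched for single arrays that stand apart.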

How the results depend on the processing

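The alternatives were cyclic loess, array weights, a trended and robust prior, other probe set choices, no dim probe sets, only the groups compared, a replicate block, and 15 omissions of arrays, 12 of them of 1 array. Of 61 single probe set results 50 kept their side of the test throughout, and of 19 calls 10 were kept under every alternative. None reversed. The 61 include the doxycycline and interaction results, all of which stayed uncalled. The main fit called 0 of all probe sets there, so these results say little about how firm the calls are. Probe sets other than the brightest of a gene were among the 61 only where the main fit called them. Those that an alternative newly called were therefore not counted. With 1 probe set per gene, 1 gene was higher and 4 lower without doxycycline, and 1 higher and 2 lower with it, of 10. Without _x_at and _s_at probe sets 2 were higher without doxycycline and 1 with it, of 24 left. Fitting only the 2 groups compared left 2 higher with doxycycline. Leaving out arrays gave 4 to 6 higher and 3 to 7 lower without doxycycline, and 2 to 6 higher and 2 to 4 lower with it. The doxycycline comparisons and the interaction gave 0 to 0. Without number 2 and without number 3 the calls over all probe sets without doxycycline were 7204 and 7416, against 12879, and with it 7983 and 7857, against 13401; without number 1 they were more, 14552 without doxycycline and 14518 with it.

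For the PMA comparisons not every same-numbered pair of arrays correlated over 0.1 (0.24, 0.09 and 0.12 with doxycycline, 0.19, -0.01 and 0.21 without), so the block was not taken as the design there. With a replicate block 6 kinase probe sets were higher and 7 lower without doxycycline, and 5 higher and 4 lower with it. PRKCD had 0.58 (SE 0.15, limma adjusted p = 0.0087) without doxycycline and 0.41 (adjusted p = 0.0533) with it. Neither this block nor one for each of the 6 pairs called any kinase probe set for doxycycline, where the 6 pairs called 79 of all probe sets in PMA, against 0.

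The averaged ZXDC difference was -0.56 to -0.39 without replicates 1, 2 or 3 in turn, where the exact permutation test cannot go below its p of 0.0556. By the same exact test it was -0.33 (p = 0.135) for 230209_at and -0.30 (p = 0.105) for 230106_at.

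The limits are 3 arrays per group, probe sets near the dim limit, and the wide spread of PRKCD and PRKCB 227817_at.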
